A study of Mus musculus with 27 samples.

Results

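Arc, the activity-regulated cytoskeleton-associated protein gene, was followed through 27 RNA-seq libraries of mouse primary cortical cells. It was taken by its symbol, which names 1 of the 59489 entries of the expression table. All cells were wild type, came from cortex at embryonic day 16.5 and had been kept for 14 days in culture. Each of 9 groups held 3 libraries of polyadenylated RNA. In the DRB experiment all cells received DRB (50 µM, 2 h), an inhibitor of transcription elongation, and was stimulated for 1 h with BDNF, a neurotrophic factor, at 50 ng/mL, stimulated for 1 h with bicuculline at 20 µM, or left unstimulated. Bicuculline is an antagonist of inhibitory GABA-A receptors, and network activity goes up in its presence. In the triptolide experiment all cells received triptolide (1 µM, 3 h), an inhibitor of transcription initiation, with bicuculline (20 µM for 1 h) or without stimulation, and RNA was taken from the nucleus, the cytosol or the whole cell. The cellular fraction of the DRB libraries is not given in the labels. No group without a transcription inhibitor was analysed here. Stimulated and unstimulated cells were compared under the same inhibitor, and only comparisons between the experiments set DRB against triptolide.

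Arc is an immediate early gene of neurons: synaptic activity and BDNF switch on its transcription through kinases of the ERK pathway, and MEF2, SRF and CREB act at its enhancer. Its mRNA is carried into dendrites, and the protein works at synapses, where it binds endophilin and dynamin and promotes the removal of AMPA receptors from the surface. The gene is also known for introns in its 3′ untranslated region, which leave exon junction complexes downstream of the stop codon and make the spliced mRNA a natural substrate of nonsense-mediated decay.

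The deposited gene model placed Arc on the minus strand of chromosome 15 of mm10, from 74669081 to 74672572. The GENCODE M21 transcript Arc-202 has 3 exons, at 74670565 to 74672570, 74670180 to 74670316 and 74669083 to 74669993. Its coding sequence of 1188 bases (74671185 to 74672372) lies wholly within exon 1. Both introns, of 248 bases (74670317 to 74670564) and 186 bases (74669994 to 74670179), therefore lie in the 3′ untranslated region. No other GENCODE gene overlapped Arc on either strand, and the nearest, Jrk, lay 29.7 kb away. The table holds 1 value per gene and library, in FPKM (fragment numbers scaled to transcript length and library size), so spliced transcripts and transcripts that keep an intron were not separated.

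Depth, read from the spacing of low values in the table, was 83400000 to 147900000 fragments in the DRB libraries and 67600000 to 89400000 fragments in the triptolide libraries. At that depth the estimated number of Arc fragments was 248 to 50890 in a DRB library and 209 to 1142 in a triptolide library. The SD from counting alone was then 0.443 to 6.35% of the level under DRB and 2.96 to 6.93% under triptolide. All 15 neuron markers were detected, with a summed level of 1810 to 3193 FPKM over the 27 libraries. Astrocyte markers (9 of 9 detected) summed to 512 to 854 FPKM, and oligodendrocyte lineage markers (9 of 9) to 198 to 271 FPKM under DRB and 72.9 to 128 FPKM under triptolide. Progenitor and proliferation markers (6 of 6) summed to 13.2 to 51.7 FPKM. Microglia markers (3 of 7 detected) summed to 2.4 to 9.8 FPKM, with Tmem119 and P2ry12 averaging at most 0.048 FPKM in any group. Vascular and mesenchymal markers (2 of 7) summed to 2.7 to 52.7 FPKM, and Cldn5 was listed at or near 0.

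Under DRB, Arc was among the most abundant mRNAs of BDNF-treated cells, was at an intermediate level with bicuculline and was below 1 FPKM in unstimulated cells. Its level was 115, 106 and 150 FPKM in the BDNF libraries (replicates 1, 2 and 3), 27.95, 31.9 and 29.2 FPKM in the bicuculline libraries, and 0.844, 0.971 and 0.958 FPKM in the unstimulated libraries. The 3 groups did not overlap, and the lowest bicuculline library stood far above the highest unstimulated one. By level, Arc ranked between 404 and 671 of all entries with BDNF, between 2710 and 3067 with bicuculline and between 13013 and 13328 in unstimulated cells.

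**Figure D1:**
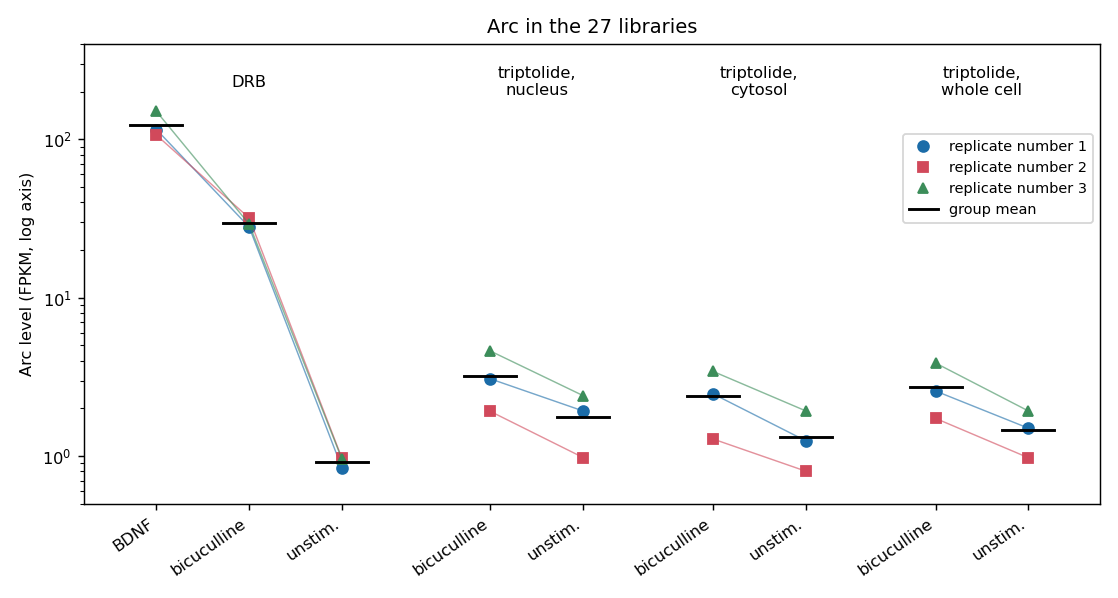
Arc level (FPKM, log axis) in each of the 27 libraries, by group. Points are libraries, lines join libraries with the same replicate number within an experiment and RNA fraction, and black bars are group means; Arc averaged 124 FPKM with BDNF, 29.7 FPKM with bicuculline and 0.924 FPKM in unstimulated cells under DRB, while the triptolide group means ran from 1.33 to 3.20 FPKM.

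The comparison of bicuculline with unstimulated cells asks whether raised network activity changes Arc RNA while DRB is present. Arc averaged 29.7 ± 1.998 FPKM with bicuculline and 0.924 ± 0.0701 FPKM without (SD, n = 3 each). Within replicate numbers the ratio was 33.1, 32.8 and 30.5. Arc rose by 4.40 on the scale of log2(FPKM + 0.5) (SE 0.12, 95% confidence interval 4.13 to 4.68, adjusted p = 1.09e-06 in limma), a scale that understates the change of a gene this low in the unstimulated group. Of 13321 genes tested, 41 or 0.308% were higher with bicuculline and 0 were lower, while 266 genes had an unadjusted p under 0.05. With the replicate number as a block, that is with a term for each number in the fit, 76 genes (0.571%) were higher and 0 lower. Arc had the second-highest change of all genes tested, after Npas4. All unstimulated libraries were below 1 FPKM, so Arc passed the filter on low values only through the stimulated groups and had to differ. Without the filter its change was 4.40 with an adjusted p of 2.37e-05. In bulk RNA a change in the number of cells that express Arc and a change in Arc RNA per cell cannot be told apart.

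BDNF, the ligand of the receptor TrkB, gave a still higher Arc level. Arc averaged 124 ± 23.1 FPKM with BDNF, against 0.924 ± 0.0701 FPKM in unstimulated cells (SD, n = 3 each), and the ratio within replicate numbers was 137, 110 and 157. The change of 6.44 (SE 0.12, 95% confidence interval 6.16 to 6.71, adjusted p = 4.10e-08 in limma) was the highest of the 13321 genes tested. Here too Arc passed the filter only through the stimulated groups and had to differ. Over 11 other settings, 1 of them without the filter, the change was 6.01 to 6.91 (limma adjusted p at most 1.45e-05). In that comparison 85 genes (0.638%) were higher with BDNF and 0 were lower, with 462 genes at an unadjusted p under 0.05. The fit with the block gave 194 higher (1.46%) and 5 lower. Both comparisons used the same 3 unstimulated libraries. Of 15 neuron markers 0 were called in either without the block, and with it Neurod6 alone was called, higher with bicuculline (0.41).

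Set directly against bicuculline, BDNF gave a higher Arc level in 3 of 3 replicate numbers, with ratios of 4.13, 3.34 and 5.15. Arc was higher by 2.03 (SE 0.12, 95% confidence interval 1.76 to 2.31, adjusted p = 8.29e-04 in limma), again the highest change of all genes tested. In all, 15 genes (0.113%) were higher with BDNF than with bicuculline and 2 were lower, with 347 at an unadjusted p under 0.05, and the block gave 60 (0.45%) higher and 12 lower. The call was lost when all libraries with replicate number 1 were left out (2.03, adjusted p = 0.290) or all with number 3 (1.88, adjusted p = 0.0703), and no gene was called in either fit. With the block the call was lost without number 1 (adjusted p = 0.180) and kept without number 3 (adjusted p = 1.59e-04). An exact permutation test of 3 libraries against 3 cannot give a two-sided p under 0.1, and gave 0.1 for each of the 3 DRB comparisons.

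**Figure D2:**
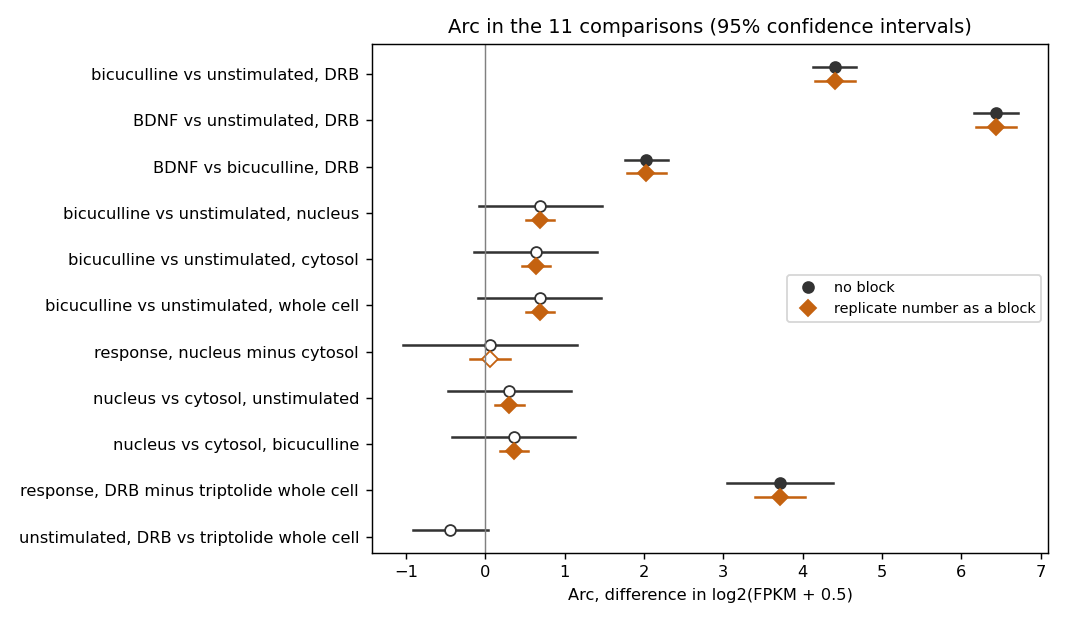
Difference in Arc, in log2(FPKM + 0.5), with its 95% confidence interval in each of 11 comparisons. Circles are fits without a block and diamonds fits with the replicate number as a block; filled symbols have a limma adjusted p under 0.05. The DRB changes lie between 2.03 and 6.44, and the bicuculline changes under triptolide between 0.64 and 0.69, with intervals that include 0 only in the fits without the block.

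Under triptolide, Arc was low in every library and somewhat higher with bicuculline in each RNA fraction. In the nucleus it was 3.08, 1.92 and 4.61 FPKM in the bicuculline libraries (replicates 1, 2 and 3) and 1.93, 0.980 and 2.41 FPKM in the unstimulated libraries. In the cytosol the levels were 2.48, 1.28 and 3.43 FPKM with bicuculline and 1.25, 0.804 and 1.93 FPKM without. In whole cells they were 2.58, 1.73 and 3.87 FPKM with bicuculline and 1.502, 0.978 and 1.93 FPKM without. The groups overlapped in all 3 fractions, yet the bicuculline library was the higher one in 3 of 3 replicate numbers in each. The ratios within replicate numbers were 1.595, 1.96 and 1.91 in the nucleus, 1.98, 1.596 and 1.78 in the cytosol, and 1.72, 1.77 and 2.01 in whole cells.

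Fitted without a block, none of these 3 differences passed the test. Arc averaged 3.20 ± 1.35 FPKM with bicuculline and 1.77 ± 0.728 FPKM without in the nucleus (SD, n = 3 each), a difference of 0.69 (SE 0.36, 95% confidence interval −0.08 to 1.47, adjusted p = 0.350 in limma). It averaged 2.397 ± 1.08 FPKM with bicuculline and 1.33 ± 0.568 FPKM without in the cytosol, a difference of 0.64 (SE 0.36, −0.14 to 1.41, adjusted p = 0.364). In whole cells it averaged 2.73 ± 1.08 FPKM with bicuculline and 1.47 ± 0.477 FPKM without, a difference of 0.69 (SE 0.36, −0.09 to 1.46, adjusted p = 0.528). Most of the spread within these groups lay between replicate numbers. The numbers were treated as pairing libraries across the groups of an experiment, while the labels do not say what they mark.

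With the replicate number as a block, Arc rose in all 3 fractions. That fit treated libraries with the same number as otherwise independent. A deviation shared by the fractions of 1 stimulus within a number was therefore not in its SE. The results of the 3 fractions may not be independent of each other. The interval was 0.51 to 0.87 in the nucleus (SE 0.08, adjusted p = 2.41e-04), 0.46 to 0.82 in the cytosol (SE 0.08, adjusted p = 5.16e-04) and 0.51 to 0.87 in whole cells (SE 0.08, adjusted p = 6.40e-04). By size of change Arc ranked 22, 33 and 13 of 14205 genes tested in the nucleus, the cytosol and whole cells. The share of all genes called higher was 0.986% in the nucleus (with 0.824% lower), 3.18% in the cytosol and 0.0141% in whole cells without the block. With the block it was 7.72%, 14.5% and 3.72%, and with the block after median-ratio scaling 8.55%, 2.88% and 1.78%. In the cytosol the median of all genes was itself 0.08 higher with bicuculline. Scaled so that this median was near 0, the blocked fit called 409 genes higher and 518 lower in the cytosol, against 2062 higher and 113 lower as deposited, and Arc was higher by 0.56 (adjusted p = 0.00263). The blocked calls were lost in the cytosol (0.57, adjusted p = 0.0523) and in whole cells (0.72, adjusted p = 0.0621) without number 1, and in whole cells without number 3 (0.61, adjusted p = 0.0842).

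Neuron markers moved with bicuculline in the nucleus. Their summed level there was 1882 to 2139 FPKM with bicuculline and 1810 to 1908 FPKM without, and 9 of 15 were higher in the blocked fit, while 0 of 15 passed without the block. In whole cells the sum was 2243 to 2533 FPKM with bicuculline and 2236 to 2331 FPKM without, with 4 of 15 higher in the blocked fit. The blocked fit called 7.72% of all genes higher in the nucleus and 3.72% in whole cells. In the cytosol, where it called 14.5% of all genes higher, 3 of 15 neuron markers and 3 of 8 tested oligodendrocyte lineage markers were higher. After median-ratio scaling these were 0 and 1, and after quantile normalization 0 and 0. In the nucleus 1 of 8 tested astrocyte markers was lower in the blocked fit, as were 5.39% of all genes, and the nuclear count of neuron markers was 9 after median-ratio scaling and 8 after quantile normalization. The part of these markers in the Arc differences was not tested.

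The bicuculline response of Arc could not be told apart between nucleus and cytosol. The nuclear minus the cytosolic response was 0.06 (SE 0.51, 95% confidence interval −1.04 to 1.15, adjusted p = 0.972 in limma), and −0.20 to 0.31 with the block (adjusted p = 0.788). The all-gene median of this difference was −0.11, and −0.0054 to 0.0091 after the scalings, where Arc stood at 0.14 (median-ratio) and 0.34 (quantile).

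Arc RNA was detected in both nucleus and cytosol, and the levels of the fractions overlapped. The nuclear over the cytosolic level was 1.24, 1.49 and 1.34 with bicuculline and 1.54, 1.22 and 1.25 in unstimulated cells. Nucleus minus cytosol was 0.36 with bicuculline (SE 0.36, adjusted p = 0.402) and 0.30 in unstimulated cells (SE 0.36, adjusted p = 0.476), ranking 3913 and 5214 of 14205 genes. With the block both passed (adjusted p = 0.00113 with bicuculline and 0.00377 in unstimulated cells), and both calls depended on scaling. With bicuculline the blocked value was 0.18 after median-ratio scaling (adjusted p = 0.0521) and 0.038 after quantile normalization (adjusted p = 0.725). The direction in unstimulated cells depended on scaling: it was 0.04 after median-ratio scaling, which gave an all-gene median of −0.25 in place of 0.06, and −0.30 after quantile normalization. FPKM in each fraction is relative to that fraction's own RNA, so these ratios do not give the share of Arc molecules in the nucleus. As a check of the fractions, 6 of 6 tested nuclear RNAs were higher in the nucleus, with a median of 2.80 with bicuculline and 3.11 in unstimulated cells, where 31.3% and 39% of all genes were higher. Of 12 cytosolic mRNAs, 6 were lower and 1 higher in the nucleus with bicuculline, and 1 was lower and 2 higher in unstimulated cells, while 31.9% and 28% of all genes were lower. Their summed level was 5567 to 6051 FPKM in the nucleus and 5727 to 6816 FPKM in the cytosol with bicuculline, and 5587 to 6321 FPKM in the nucleus and 6054 to 6765 FPKM in the cytosol of unstimulated cells, so the fractions overlapped in these mRNAs. The direction of these mRNAs depended on scaling: 8 were lower and 0 higher with bicuculline, and 9 lower and 0 higher in unstimulated cells, after median-ratio scaling, but 1 lower and 2 higher, and 2 lower and 3 higher, after quantile normalization.

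Bicuculline changed Arc far more in the DRB experiment than in the triptolide experiment. The response under DRB exceeded that of triptolide-treated whole cells by 3.72 (SE 0.31, 95% confidence interval 3.05 to 4.38, adjusted p = 7.28e-05 in limma). That was the second-highest of 13930 genes, of which 19 (0.136%) had a larger response under DRB and 0 a smaller one, with 404 at an unadjusted p under 0.05. With the block 39 genes (0.28%) had a larger response and 1 a smaller one. Without number 1 the difference was 3.68 with an adjusted p of 0.0927 unless the block was kept. Inhibitor, its duration, the set of libraries and possibly the RNA fraction differ between the experiments and cannot be told apart. In unstimulated cells Arc was 0.924 ± 0.0701 FPKM under DRB and 1.47 ± 0.477 FPKM in whole cells under triptolide (SD, n = 3 each), a difference of −0.44 (SE 0.22, −0.91 to 0.03, adjusted p = 0.0924), while the all-gene median was 0.26 higher under DRB.

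Ordered by mean level, the 9 groups ran from BDNF and bicuculline under DRB through bicuculline in the nucleus, whole cell and cytosol, then unstimulated nucleus, whole cell and cytosol under triptolide, to unstimulated cells under DRB. Only the first 2 steps, BDNF to bicuculline under DRB and bicuculline under DRB to bicuculline in the nucleus under triptolide, separated groups whose libraries did not overlap. Each later neighbour overlapped the next.

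The replicate numbers of the triptolide experiment differed in Arc in a fixed order. Replicate 3 was highest and replicate 2 lowest in 6 of 6 groups, and the highest library was 1.97 to 2.67 times the lowest within a group. Under DRB that ratio was 1.14 to 1.41. Of the 14205 genes tested under triptolide, 79 (0.556%) had this same order in every group, and 594 (4.18%) held any single order in all 6. Among the 17 other activity genes tested, Fos, Fosb and Ier5 shared the order of Arc. In whole cells with bicuculline, the summed neuron markers were 2243, 2373 and 2533 FPKM in replicates 1, 2 and 3, and the summed astrocyte markers 624, 750 and 691 FPKM. Neither sum followed the order of Arc. The summed activity genes did in these libraries (111, 93.2 and 112 FPKM), but not in unstimulated whole cells (87.0, 77.5 and 84.4 FPKM). The cause of the order was not tested. Summed microglia markers were 7.87, 2.53 and 5.70 FPKM, lowest in replicate 2 as Arc was but highest in replicate 1.

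Of the 10 genes whose levels tracked Arc most closely, 6 belong to the list of activity genes used below. That list holds 24 genes, 22 of them detected, beside the 11504 named entries compared. It was chosen with earlier results of these data known, and the overlap was not tested. Over all 27 libraries, with 11504 named entries compared, the highest Pearson r of log2(FPKM + 0.5) with Arc belonged to Egr2 (0.965), a zinc-finger transcription factor, Gadd45b (0.955), a stress- and activity-induced gene, Tob1 (0.949), an antiproliferative regulator of mRNA deadenylation, and Errfi1 (0.943), a feedback inhibitor of the EGF receptor. Ccno (0.937), Sertad1 (0.937), Ier2 (0.937), Btg2 (0.934), Fosb (0.929) and Atf3 (0.928) followed. Egr2, Ccno, Sertad1 and Atf3 averaged at least 1 FPKM only in the stimulated DRB groups, where Arc was high. They passed the filter on low values mainly through those groups, so the filter favoured a high r for them. The median r of all entries was 0.427 and 15 exceeded 0.9. These libraries come from 2 experiments that differ in inhibitor, and most of the range of Arc lies in the 6 stimulated DRB libraries, so r mainly describes that contrast.

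Within each experiment the leading genes were partly others, with Errfi1 and Btg2 again among those of the DRB libraries. Over the 9 DRB libraries the highest r were those of Errfi1 (0.992), Klf6 (0.990), Dusp1 (0.990), Egr4 (0.988) and Btg2 (0.987), where Dusp1 is a phosphatase that switches off MAP kinases. Over the 18 triptolide libraries they were Plk2 (0.918), a synaptic kinase induced by activity, Zfp322a (0.917), Fam179b (0.913), Nr4a1 (0.906) and Ier5 (0.8996), with 4 entries above 0.9. Plk2 had r = 0.508 over the DRB libraries, where it averaged 21.9 FPKM with BDNF, 36.4 FPKM with bicuculline and 17.0 FPKM in unstimulated cells, a different order of the stimuli from that of Arc. Libraries with the same replicate number within an experiment deviate together, and no test was made of these correlations.

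**Figure D3:**
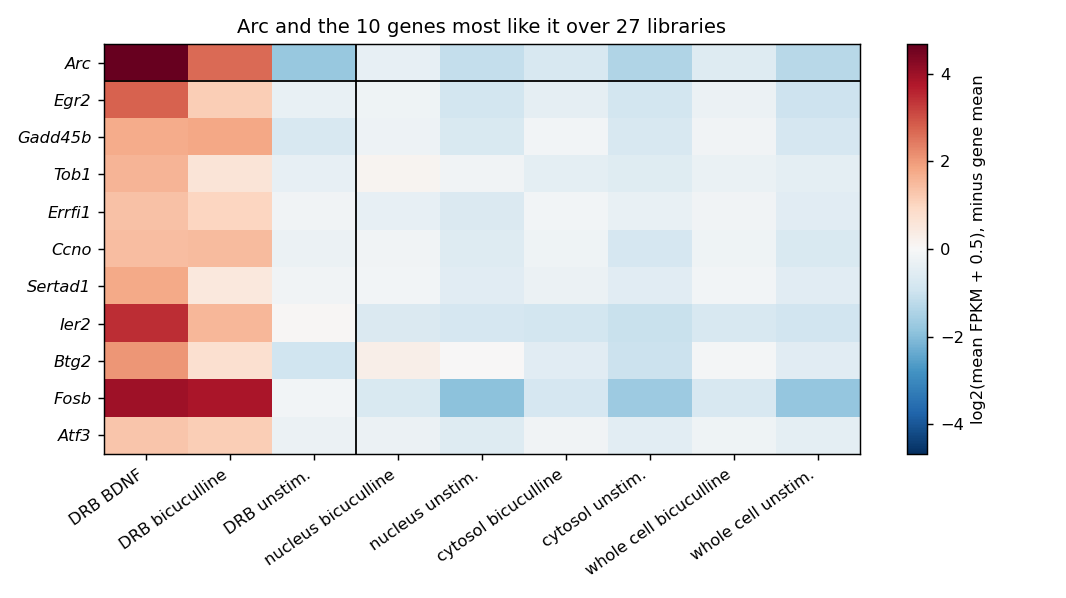
Group means of Arc and of the 10 genes with the highest Pearson r to it over 27 libraries. Colour is log2(mean FPKM + 0.5) minus the gene's mean over the 9 groups; groups are DRB on the left of the vertical line and triptolide on the right. Each gene is highest with BDNF or bicuculline under DRB. Gadd45b and Ccno have a slightly higher mean with bicuculline (9.66 and 3.85 FPKM) than with BDNF (9.34 and 3.70 FPKM). The other genes have, like Arc, a higher mean with BDNF, for example Egr2 and Ier2 (10.9 and 15.2 FPKM, against 3.19 and 3.80 FPKM with bicuculline).

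Arc was then set beside 24 other activity genes, among them the transcription factors of the Fos, Egr and Nr4a families. Under DRB 22 of them were tested. With bicuculline 16 rose and 0 fell, where 0.308% of all genes were higher. The median change was 1.503 beside 0.0035 for all genes. With BDNF 16 rose and 0 fell, where 0.638% of all genes were higher, with a median of 2.25 beside 0.0030. Egr2, Maff, Atf3 and Ier5 averaged below 1 FPKM in unstimulated cells and passed the filter through the stimulated groups. The 22 tested genes include them. After bicuculline the largest rises were those of Npas4 (4.74), Fosb (4.04), Fos (3.64) and Gadd45g (3.08), so that Arc at 4.40 fell between Npas4, a neuronal activity-dependent transcription factor, and Fosb. After BDNF the largest were Fosb (4.20), Fos (3.95), Egr4 (3.87) and Npas4 (3.63), and Arc at 6.44 exceeded each.

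Like Arc, 5 of 22 activity genes were higher with BDNF than with bicuculline, where 0.113% of all genes were higher. They were Ier2 (1.87), Egr1 (1.71), Egr2 (1.62), Egr4 (1.61) and Btg2 (1.29). Of the list 0 were lower, and its median was 0.20 beside −0.0019 for all genes. Arc at 2.03 lay above all 5. Npas4 averaged 74.5 FPKM with BDNF and 162 FPKM with bicuculline, a difference of −1.12 that was not called (adjusted p = 0.700), and Gadd45g averaged 21.4 FPKM with BDNF and 39.7 FPKM with bicuculline (−0.88, adjusted p = 0.205). Fos (0.31), Fosb (0.16) and Nr4a1 (0.09) were not called either.

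**Figure D4:**
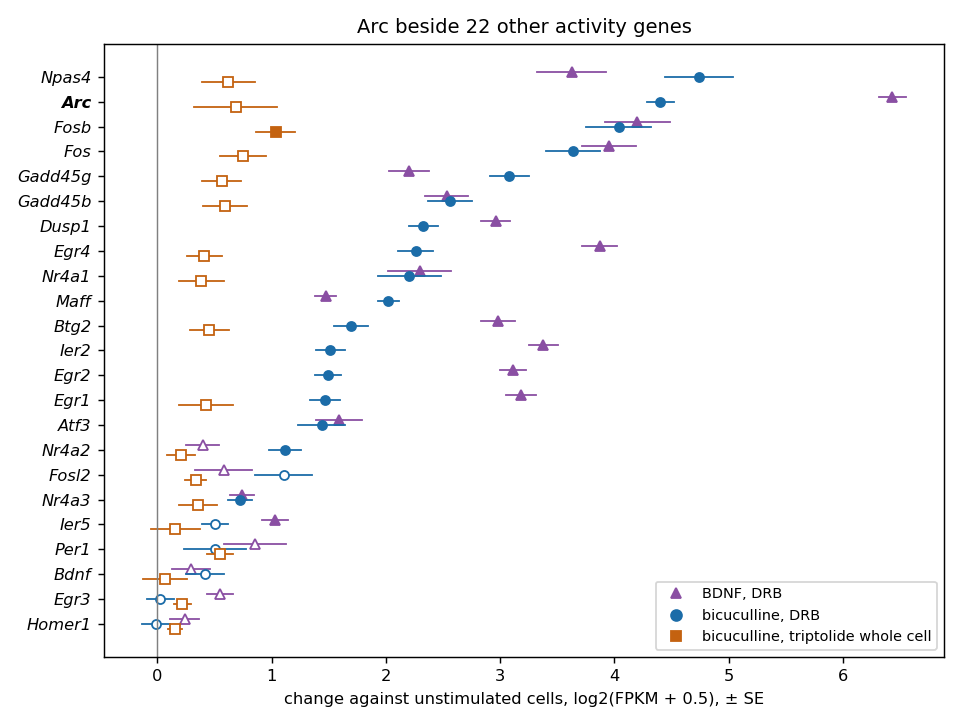
Change against unstimulated cells (log2(FPKM + 0.5), ± SE) of Arc and 22 other activity genes. Triangles are BDNF under DRB, circles bicuculline under DRB and squares bicuculline in whole cells under triptolide, and filled symbols have a limma adjusted p under 0.05 without a block. A gene with no square was not tested under triptolide. Arc has the rightmost triangle (6.44), and under triptolide only Fosb (1.04) is filled. Fosb averaged 0.424 FPKM in unstimulated whole cells and passed the filter mainly through the bicuculline groups.

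Under triptolide 17 of the 24 activity genes were tested. Without the block 3 rose in the nucleus, 4 in the cytosol and 1, Fosb (1.04), in whole cells, and 0 fell. Fosb averaged 0.351, 0.501 and 0.424 FPKM in unstimulated nucleus, cytosol and whole cells. Like Egr4 and Gadd45g, it averaged below 1 FPKM in all unstimulated triptolide groups and passed the filter mainly through the bicuculline groups. The filter thus favoured a rise of these genes. With the block 11 rose in the nucleus, 14 in the cytosol and 11 in whole cells, and 0 fell, where 7.72%, 14.5% and 3.72% of all genes were called higher. After median-ratio scaling the blocked counts were 12, 9 and 9, and after quantile normalization 13, 6 and 8. In whole cells the blocked rises included Fosb, Fos (0.75), Npas4 (0.62) and Gadd45b (0.59), beside 0.69 for Arc, and the list median was 0.41 beside 0.03 for all genes. Npas4 was 0.84 higher in the cytosol (blocked adjusted p = 4.1e-05) and 0.11 higher in the nucleus (blocked adjusted p = 0.406), whereas Arc was 0.64 and 0.69 higher there. For the difference between DRB and triptolide responses, 9 of 22 activity genes had a larger response under DRB and 0 a smaller one (13 and 0 with the block). Npas4 (4.12), Fosb (3.001) and Fos (2.89) led. Of all genes 0.136% had a larger response under DRB, and 0.28% with the block.

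Genes that act on or with Arc were set beside all genes, of which 0.308% were higher after bicuculline and 0.638% after BDNF under DRB. Of 15 tested transcription regulators, 20 members of the path from NMDA receptor and TrkB to ERK, 20 protein partners of Arc, 9 genes of Arc protein turnover, 14 exon junction and decay genes and 19 genes of mRNA transport and dendritic translation, 0 passed after bicuculline, with or without the block. After BDNF the single one to rise was Srf, the serum response factor, which averaged 23.4 FPKM with BDNF and 10.995 FPKM in unstimulated cells (1.05, SE 0.13, adjusted p = 0.00641 in limma). Its mean with bicuculline was 13.4 FPKM. In the direct comparison of BDNF with bicuculline Srf was called in the blocked fit (0.77, adjusted p = 0.00155).

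Under triptolide the share of all genes called was larger, 3.18% higher in the cytosol without the block and 14.5% with it. In the cytosol after bicuculline 4 of 15 transcription regulators rose without the block, namely Elk4 (0.45), Mkl1 (0.38), Srf (0.34) and Crebbp (0.33), and 11 with it, but 3 with the block after median-ratio scaling and 1 after quantile normalization. Of 14 exon junction and decay genes 5 rose there without the block, among them Smg1 (0.60), Smg6 (0.35), Upf1 (0.35) and Smg5 (0.34). With the block 6 rose, 5 after median-ratio scaling and 3 after quantile normalization. Without the block, far fewer genes were called in the cytosol after median-ratio scaling, and fewer still after quantile normalization. The unblocked cytosolic calls of both lists may therefore not hold on those scales. Upf1 is the central helicase of nonsense-mediated decay, and the Smg proteins regulate its phosphorylation or cut and remove its targets. In the nucleus 0.986% of all genes were higher and 0.824% lower without the block. There Smg9 (0.26), the AMPA receptor subunit gene Gria1 (0.28), the NMDA receptor subunit gene Grin1 (0.32) and Pias4 (0.39) rose. The dynamin gene Dnm2 fell (−0.32). In whole cells 0 genes of these lists passed without the block. With it 3.72% of all genes were higher in whole cells. Mkl1 (0.37), Mkl2 (0.33), Srf (0.30) and Mef2a (0.22) then rose among the regulators, and 3 decay genes rose, among them Upf1 (0.33) and Smg5 (0.19). The Srf level was 4.82 FPKM with bicuculline and 3.82 FPKM in unstimulated whole cells.

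The counts of the other lists under triptolide were small. In the cytosol, where 3.18% of all genes were higher without the block, 2 of 20 signalling genes rose, among them Braf (0.39), a kinase upstream of ERK. There also rose Rnf216 (0.27), a ubiquitin ligase for Arc, among 9 turnover genes, and Iqsec2 (0.24) among 20 protein partners. After median-ratio scaling or quantile normalization 0 members of these 3 lists were called there without the block. Of 19 genes of mRNA transport and dendritic translation 0 rose without the block in any fraction, and 3 in the cytosol and 2 in whole cells with it, where 14.5% and 3.72% of all genes were higher. In the cytosol that count was 0 after either scaling.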

How the data were processed

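Libraries were made with a stranded mRNA kit (TruSeq) from 200 ng of total RNA, per the labels' protocols. The deposited values are FPKM per gene, computed by the authors on mm10. STAR 2.4.0, SAMtools, Picard and FastQC are the tools in the submitters' processing notes, with mm10 as the build. How fragments were counted, and with which strand setting, is not given in the sources used here. Per the file headers the table has 1 column for each of the 27 libraries, and all were matched to a sample by name. Groups were taken from the labels. FPKM values were not counts, so limma 3.58.1 (R 4.3.3) was run on log2(FPKM + 0.5) with trend and robust moderation, on genes with at least 1 FPKM in at least 3 of the fitted libraries, with Benjamini-Hochberg adjustment over all genes tested and a threshold of 0.05. All groups of an experiment entered a fit. DRB was compared with triptolide over the 9 DRB and the whole-cell triptolide libraries.

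Replicate numbers were treated as pairs because libraries with the same number deviated together (r over genes 0.463 to 0.902 under DRB and 0.256 to 0.692 under triptolide), while the labels do not say what a number marks. Nothing states that libraries came from separate animals, so p-values measure the spread between these libraries. Depth was estimated from the steps of low values of entries under 3000 bases, and Arc fragments from that depth and an exonic length of 3054 bases. These counting errors cover counting only. The gene structure is from GENCODE M21.

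Named genes were Arc, the 10 entries with single, non-provisional symbols most correlated with it over 27 libraries, the 5 most correlated in each experiment, and up to 4 called members of a list with the largest change. A 5th member of a list, and activity genes given though not called, were named after their values were seen. Arc and the lists were chosen with earlier results of these data known. Mef2b, Casc3, Malat1, Neat1 and Kcnq1ot1 matched no entry by name. Single members of some lists are not reported here, while counts of lists cover all their members. The fit was tested on simulated data. Figures used Python 3.11.15 and matplotlib 3.10.9.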

Additional observations from a re-analysis of the deposited data

Results flagged for a closer look

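The bicuculline response of Arc differed between the experiments: the response under DRB exceeded that of triptolide-treated whole cells by 3.72 on the log2 scale in a direct test of the difference (limma adjusted p = 7.28e-05). The response was 4.40 under DRB and 0.69 in whole cells under triptolide, and all 3 replicate numbers of each experiment showed a higher level with bicuculline. The difference was 3.48 to 3.96 when any single library, or all libraries with 1 replicate number, was left out. Its call was lost without number 1 (limma adjusted p = 0.0927) unless the block was kept. Inhibitor, duration of inhibition, the set of libraries and possibly RNA fraction cannot be told apart here.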

How the results depend on the processing

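Of 252 alternative values for Arc, 216 kept direction and call, 4 lost the call, 24 gained it and 8 reversed. Bicuculline and BDNF against unstimulated cells under DRB kept both in every alternative run (3.99 to 4.86 and 6.01 to 6.91, and 4.35 to 4.44 and 6.29 to 6.56 with libraries left out). BDNF against bicuculline ranged from 1.88 to 2.18 with libraries left out and lost its call without number 1, with or without the block (2.03), and without number 3 (1.88). The difference of responses between DRB and triptolide was 3.48 to 3.96 and lost its call without number 1 (3.68).

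The replicate block turned the bicuculline differences under triptolide into calls: 0.69 in the nucleus, 0.64 in the cytosol and 0.69 in whole cells, then 0.70, 0.56 and 0.66 with median-ratio scaling and 0.81, 0.48 and 0.69 with quantile normalization. Under the block with 1 number left out, calls were made at 0.76, 0.69 and 0.63 (nucleus, without 1, 2 and 3), 0.73 and 0.61 (cytosol, without 2 and 3), 0.73 (whole cell, without 2), 0.41, 0.32 and 0.35 (nucleus against cytosol with bicuculline) and 0.37 and 0.33 (unstimulated, without 2 and 3). With libraries left out and no block the bicuculline differences were 0.41 to 0.97, 0.38 to 0.95 and 0.44 to 0.93. The block also called nucleus against cytosol (0.36 with bicuculline and 0.30 unstimulated; 0.05 to 0.64 and 0.08 to 0.59 with libraries left out), but with median-ratio scaling neither passed (adjusted p = 0.0521 and 0.646). Quantile normalization, with and without the block, reversed the unstimulated value to −0.30. The nuclear minus cytosolic response changed sign with libraries left out (−0.26 to 0.33; −0.044 without number 2, with the block too). Unstimulated DRB against triptolide was −0.66 to −0.27, called without number 2 (−0.66, adjusted p = 0.0111) or without replicate 2 of unstimulated whole cells (−0.63, adjusted p = 0.0259). With the block BDNF against bicuculline kept its call without number 3, and the difference between DRB and triptolide without number 1 (adjusted p = 0.00230). With all libraries the block changed no other call of Arc. Unstimulated DRB against triptolide was not fitted with the block, because the replicate numbers are nested in the experiment. The cause of these changes was not tested.

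The block also raised counts of called genes: 257 without and 1862 with it in the nucleus, 465 and 2175 in the cytosol, and 5 and 601 in whole cells. The cytosolic count was 35 with median-ratio scaling and 2 with quantile normalization. A minimum of 5 FPKM left Arc out of the 6 triptolide comparisons, and a fit of only the compared groups left it out of unstimulated DRB against triptolide. At 209 to 519 estimated fragments in unstimulated libraries, counting limited Arc to 4.39 to 6.93%.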
